A study of Mus musculus with 21 samples.

Results

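The homing and adhesion receptors examined here are 9 genes chosen by symbol: Cxcr4, Cxcr5, Ccr7, Ccr9, S1pr1, Cd44, Itga4, Itgb1 and Itgal. All 9 were present among the 24421 gene symbols of the deposited tables, and all 9 passed the filter on low counts together with 12786 genes in total. Ccr9 passed this filter only through the condition in which it was high, as given below. They were measured by poly(A) RNA-seq in primary B cell precursors of C57BL/6 mice that were 53BP1-/-, that is, without the DNA repair factor 53BP1. All 3 conditions shared this genotype, growth in IL-7 at 10 ng/ml and transduction with the retroviral vector MIGR1 on days 2 and 3 of culture. The vector was empty (EV) or encoded BCR-ABL1p210, the fusion kinase of leukemia, or the transcription factor C-MYC. The cells were harvested 7 to 9 days after transduction, and each condition had 2 libraries, for 6 in all. The methods describe the harvest as that for ChIP-seq, with dead and apoptotic cells removed by a kit. The methods describe duplicate experiments, but whether these used separate mice is not given in the sources used here, so p-values measure the spread between these libraries. The cultures were enriched from total bone marrow, and a sort for transduced cells is not mentioned in the methods, so each library can hold cells of other types and cells without the vector. The age of the mice is not given in the sources used here.

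Homing receptors and adhesion receptors place a B cell precursor in the marrow and let it leave. CXCR4 binds the stromal chemokine CXCL12 and holds precursors in their niche, while S1PR1 senses sphingosine 1-phosphate in blood and lymph and draws lymphocytes out of tissue. CXCR5, CCR7 and CCR9 read CXCL13, CCL19 with CCL21, and CCL25, which mark lymphoid follicles, T cell zones and the thymus or gut. Integrins are pairs of an alpha and a beta chain: the products of Itga4 and Itgb1 form VLA-4, which binds VCAM1 and fibronectin on stroma, and the product of Itgal pairs with that of Itgb2 to form LFA-1, which binds ICAM1. CD44 binds hyaluronan of the matrix.

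The libraries held 20687092 to 24095955 counts, and CPM values below, which are counts relative to the library total, are scaled by TMM, the correction of edgeR for library composition. Myc, the check of the C-MYC label, had 37920 and 27450 counts with C-MYC, 7239 and 8381 with BCR-ABL1 and 3869 and 3277 with the empty vector. The label of B cell precursors was met in all 6 libraries by the sum of 10 defining genes, among them Cd79a and Vpreb1. It lay between 5615 and 6377 CPM in EV, between 5796 and 6443 in BCR-ABL1 and between 3294 and 3917 in C-MYC. Within this list, Il7r and Cd79b lay below EV in BCR-ABL1, while the other genes overlapped EV or lay above it. Il7r had 184 and 131 CPM in EV, 46.6 and 42.8 with BCR-ABL1 and 50.8 and 52.4 with C-MYC. EV had the highest sums in most lists of markers of other cells. The 12 measured myeloid markers summed to between 1235 and 1307 CPM in EV. Their sums were between 156.5 and 177.3 in BCR-ABL1 and between 232.9 and 390.6 in C-MYC. Cd68 alone among them overlapped between EV and C-MYC, at 34.8 and 61.0 CPM in EV and 37.8 and 49.0 in C-MYC. It had 13.8 and 15.6 CPM with BCR-ABL1. The 9 measured markers of T and NK cells summed to between 191.4 and 250.9 CPM in EV, between 118.4 and 132.4 in BCR-ABL1 and between 55.05 and 60.12 in C-MYC. Most of that sum outside EV was Lck, at 49.1 CPM or more in every library. Without Lck, a choice made after its values were seen, the other 8 markers summed to 134 and 98.2 CPM in EV, 7.87 and 9.43 with BCR-ABL1 and 3.999 and 5.97 with C-MYC. The 8 markers of plasmacytoid dendritic cells, some of which B cells also express, were highest in EV, with sums from 1607 to 1965 CPM, against 896.6 to 1000 with BCR-ABL1 and 696.4 to 874.5 with C-MYC. Siglech, a defining marker among them, had at most 9 counts in any library. Stromal markers, 9 in number with the Lum count at 0 in all libraries, summed to between 126.8 and 189.3 CPM in EV, between 7.96 and 8.60 in BCR-ABL1 and between 2.25 and 3.46 in C-MYC. The 6 markers of mast cells and basophils reached 105.6 and 106.8 CPM in EV and at most 5.97 in the other libraries. Of 7 erythroid markers, the 4 globin genes Hba-a1, Hba-a2, Hbb-bs and Hbb-bt had deposited counts of 0 in all libraries, but 3 of them had FPKM values above 0, up to 2.27, so these counts of 0 do not measure absence. The part of these other cells in the differences below, from EV and between the oncogenes, was not tested. In bulk RNA, fewer cells of a type and less RNA per cell cannot be told apart.

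**Figure D1:**
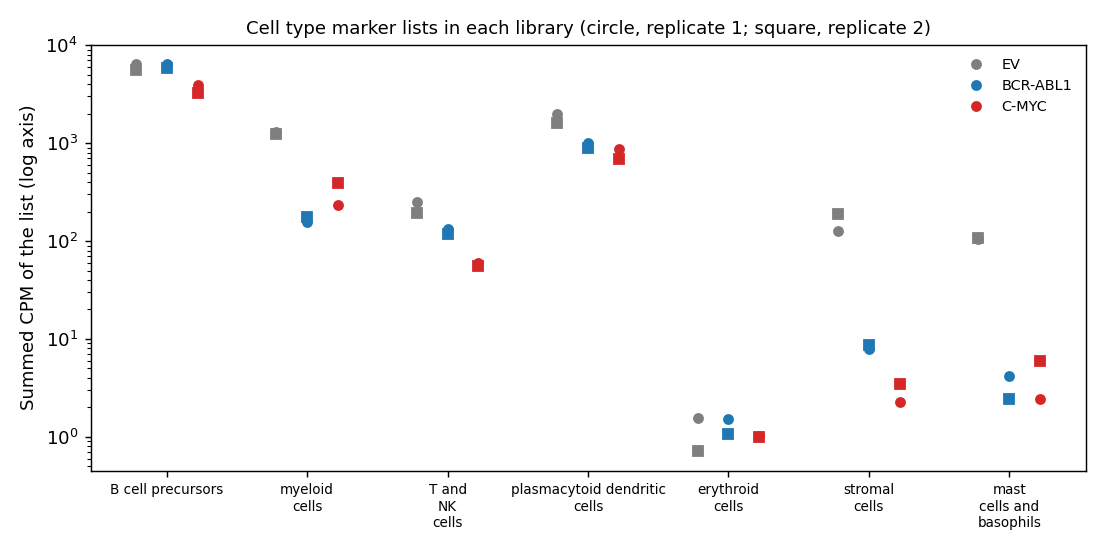
Summed TMM-normalized CPM of each list of cell type markers (log axis) in the 2 libraries of EV (gray), BCR-ABL1 (blue) and C-MYC (red). The myeloid list lay at 1235 and 1307 CPM in EV and at no more than 390.6 in the other 4 libraries, and the stromal and mast cell lists were also highest in EV.

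BCR-ABL1 was compared with EV to find which receptors differ in cells with the fusion kinase. Cxcr5 was 1.54-fold higher in BCR-ABL1, whereas Ccr9, S1pr1 and Cd44 were lower, Cd44 by 2.05-fold and S1pr1 by 1.88-fold. These were 4 of the 9 receptors, 1 higher and 3 lower, at a threshold of 0.05 on the adjusted p. Of these, Ccr9 passed the filter on low counts only through EV, so it could hardly come out other than lower. Unless given for an alternative setting, every adjusted p comes from the main quasi-likelihood test of edgeR after Benjamini-Hochberg correction. Ranges over alternatives, with their lowest and highest values, also include other edgeR settings, the DESeq2 test and limma. Of all genes tested, 17% passed in this comparison, 5.08% higher and 12% lower in BCR-ABL1. The libraries did not overlap for 5 of the 9 receptors, against 58.9% of all genes. The median log2 fold change of the 9 was -0.42, beside 0.00 for all genes tested. The 3 integrin chains Itga4, Itgb1 and Itgal did not pass. This comparison rested on few libraries: 1 receptor passed without BCR-ABL1 replicate 2, 2 without EV replicate 1 or without either C-MYC library, and 5 without EV replicate 2. Without BCR-ABL1 replicate 1, edgeR called 0 of the 9, of which 3 had an unadjusted p below 0.05, and DESeq2, run there after this count was seen, called 2.

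C-MYC differed from EV at 8 of the 9 receptors. S1pr1 was 5.26-fold lower and Itgal 6.06-fold lower in C-MYC, and Ccr7 was 2.99-fold lower. Ccr9, Cxcr4 and Itga4 were also lower, while Cxcr5 and Itgb1 were higher and Cd44 did not pass. Here too, Ccr9 had passed the filter only through EV and could hardly come out other than lower. Of all genes tested, 43.1% passed in this comparison, 18.6% higher and 24.5% lower. The libraries did not overlap for 8 of the 9 receptors and for 70.6% of all genes. The median log2 fold change was -0.77 for the receptors and -0.08 for all genes. The summed B cell precursor markers were also lower in C-MYC, 3294 and 3917 CPM against 5615 and 6377 in EV. Without C-MYC replicate 2, only 4 receptors passed, and without any other single library 6 to 8 did.

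BCR-ABL1 and C-MYC were then compared with each other, which tests the difference between the oncogenes directly. S1pr1, Itga4 and Itgal were higher in BCR-ABL1, Itgal by 5.27-fold, and Cd44 and Itgb1 were higher in C-MYC, Cd44 by 2.42-fold. These were 5 of 9 receptors, beside 23.4% of all genes tested, with 11.9% of genes higher and 11.5% lower in BCR-ABL1. The libraries did not overlap for 8 receptors and for 69.9% of all genes. The median log2 fold change was 0.38 for the receptors and 0.00 for all genes. Leaving out a library of either oncogene left 2 or 3 receptors, the lowest without C-MYC replicate 2, and leaving out an EV library left 6. Both comparisons with EV use the same EV libraries, so their values are given side by side below and not as repeats of each other.

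**Figure D2:**
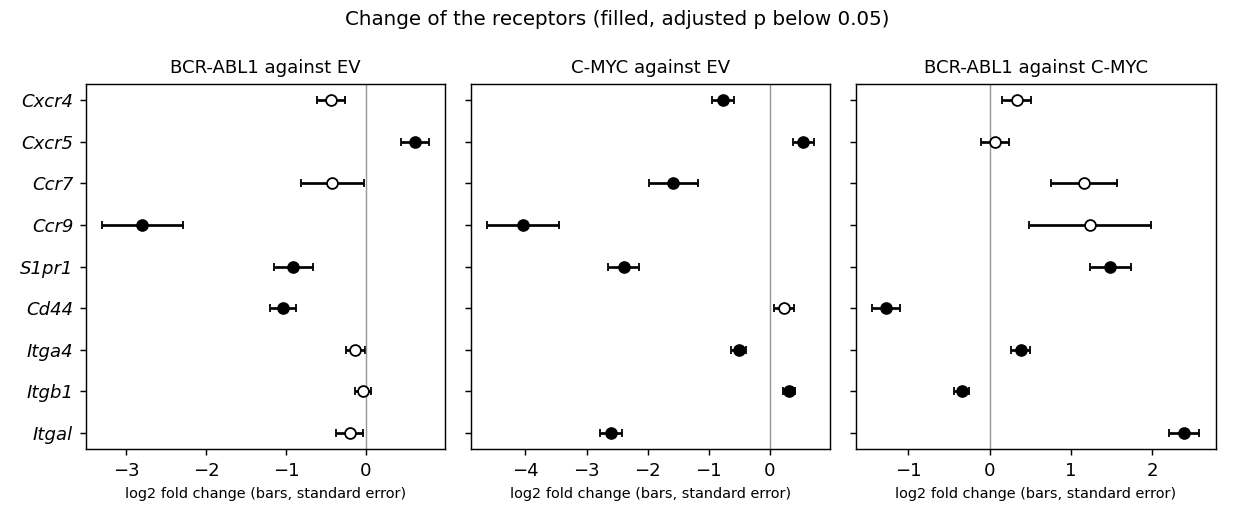
Log2 fold change of each receptor with its standard error in the 3 comparisons, each with an axis of its own. Filled points passed at an adjusted p below 0.05: 4 of 9 for BCR-ABL1 against EV, 8 of 9 for C-MYC against EV and 5 of 9 for BCR-ABL1 against C-MYC. Of all genes tested, 17%, 43.1% and 23.4% passed in these comparisons.

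Cxcr4, the receptor that retains precursors in marrow, lies on GRCm38 chromosome 1 from 128588199 to 128592293 on the minus strand. It had 358 and 255 CPM in EV, 244 and 209 with BCR-ABL1 and 199 and 161 with C-MYC. All BCR-ABL1 libraries lay under both EV libraries and all C-MYC libraries lay under both BCR-ABL1 libraries, so the 3 conditions did not overlap. Cxcr4 was 1.70-fold lower in C-MYC than in EV, a log2 fold change of -0.77 ± 0.18 (SE, adjusted p = 0.0117). The difference between BCR-ABL1 and EV, -0.44 ± 0.18, did not pass (adjusted p = 0.148), nor did that between BCR-ABL1 and C-MYC, 0.33 ± 0.18 (adjusted p = 0.223). With the replicate number as a block both passed (adjusted p = 0.0162 and 0.0301), and the first also passed without EV replicate 2, with adjusted p from 0.0162 to 0.529 over 14 alternatives for the first and from 0.0301 to 0.648 for the second. The C-MYC call was lost without C-MYC replicate 2 (adjusted p = 0.0861, the highest of 14 alternatives, the lowest being 0.000468).

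Cxcl12, which encodes the CXCR4 ligand and is made by stroma, had 11 and 27 counts in EV, 2 and 5 with BCR-ABL1 and 0 in both C-MYC libraries. Summed over the libraries, it was 5.41-fold higher in EV than in BCR-ABL1, with an exact 95% interval for counting error of 2.39 to 14.4. This difference did not pass in the main test (adjusted p = 0.0633), and the EV libraries themselves differed by 2.19-fold. With 3 counts over both C-MYC libraries put in place of 0, Cxcl12 was 12.3-fold higher in EV than in C-MYC. This is not a lower limit, since the exact 95% interval for counting error began at 9.53 (adjusted p = 0.00503 in the main test). Cxcl12 is itself 1 of the stromal markers, which summed to at most 8.60 CPM outside EV.

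Ccr7, the receptor for T cell zones, lies on GRCm38 chromosome 11 from 99144196 to 99155077 on the minus strand. It had 87.1 and 45.4 CPM in EV, 61.7 and 37.6 with BCR-ABL1 and 29.1 and 15.2 with C-MYC. Replicate 1 was the higher library in every condition, by 1.92-fold in EV, 1.64-fold in BCR-ABL1 and 1.92-fold in C-MYC, and EV and BCR-ABL1 overlapped. C-MYC was 2.99-fold lower than EV (log2 fold change -1.58 ± 0.41, adjusted p = 0.0162). The C-MYC call was lost without C-MYC replicate 2 (adjusted p = 0.102, the highest of 14 alternatives, the lowest being 5.97e-05). BCR-ABL1 differed from EV by -0.42 ± 0.39 (adjusted p = 0.525). Both BCR-ABL1 libraries exceeded both C-MYC libraries, and the log2 fold change of 1.16 ± 0.40 did not pass (adjusted p = 0.0749). With the replicate number as a block both of these differences passed, BCR-ABL1 against EV at an adjusted p of 0.0424, the 1 of 14 alternatives that called it (up to 0.934), and BCR-ABL1 against C-MYC at 0.000376. The latter also passed with no filter on low counts, with only the 4 libraries compared and without either EV library, with adjusted p up to 0.382 over 14 alternatives. T cells also express Ccr7. Their markers without Lck were highest in EV and summed to at most 9.43 CPM with either oncogene, and the part of those cells was not tested.

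Cxcr5, the receptor for B cell follicles, lies on GRCm38 chromosome 9 from 44511787 to 44561877 on the minus strand. It had 56.6 and 60.7 CPM in EV, 102 and 78.4 with BCR-ABL1 and 96.6 and 74.9 with C-MYC. Every oncogene library lay above both EV libraries, and the oncogenes overlapped each other. Cxcr5 was 1.54-fold higher in BCR-ABL1 (log2 fold change 0.62 ± 0.17, adjusted p = 0.0468) and 1.46-fold higher in C-MYC (0.55 ± 0.17, adjusted p = 0.0354) than in EV. Between the oncogenes the difference was 0.07 ± 0.17 (adjusted p = 0.802). The call in BCR-ABL1 lay at the threshold and was lost in 9 of 14 alternatives, with adjusted p from 0.00947 to 0.300, and that in C-MYC in 4 of 14, with adjusted p from 0.00837 to 0.219. When single libraries were left out, the first call held only without EV replicate 2. The second was lost without EV replicate 1 or C-MYC replicate 1. The exons of Cxcr5 overlap the body of Bcl9l on the other strand, and the strand setting of the counting is not stated, so reads of the overlap cannot be told apart.

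Ccr9, the receptor for CCL25, was scarce. It lies on GRCm38 chromosome 9 from 123678439 to 123784330 on the plus strand. It had 28 and 44 counts in EV, 5 in each BCR-ABL1 library and 3 and 1 with C-MYC. EV did not overlap the other conditions. Only EV had counts high enough for the filter on low counts, so the direction of the calls against EV was largely fixed in advance. Summed over libraries and scaled for depth, Ccr9 was 7.18-fold higher in EV than in BCR-ABL1, with an exact 95% interval for counting error of 3.69 to 15.6, and 17.5-fold higher than in C-MYC, with an interval of 6.54 to 65.9. The adjusted p was 0.00949 and 0.00157. The ratio of BCR-ABL1 to C-MYC, 2.44, had an interval of 0.703 to 10.6 and the difference was not detectable at this depth (adjusted p = 0.275). Without either BCR-ABL1 library the call against EV was lost, with adjusted p from 0.00274 to 0.110 over 14 alternatives. T cells and plasmacytoid dendritic cells can express Ccr9, and their marker sums were highest in EV. Siglech had 8 and 9 counts in EV, 7 and 6 with BCR-ABL1 and 1 and 0 with C-MYC. Of the other plasmacytoid dendritic cell markers, Tcf4 overlapped between EV and BCR-ABL1. The rest lay lower in BCR-ABL1 than in EV, from 1.78-fold for Bst2 to 16.6-fold for Runx2. The part of these cells was not tested. Ccr9 exons overlap Slc6a20a, Gm17200 and AC165425.1, so at such low counts the gene of origin is uncertain.

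S1pr1, the egress receptor, lies on GRCm38 chromosome 3 from 115710433 to 115715072 on the minus strand. It had 104 and 67.3 CPM in EV, 54.1 and 37.3 with BCR-ABL1 and 16.7 and 15.9 with C-MYC. The 3 conditions did not overlap, and the C-MYC libraries were close to each other. T cells and NK cells express S1pr1 as well. Their markers without Lck summed to 134 and 98.2 CPM in EV and to at most 9.43 in the other libraries, and their part was not tested. BCR-ABL1 was 1.88-fold lower than EV (log2 fold change -0.91 ± 0.24, adjusted p = 0.0388) and C-MYC 5.26-fold lower (-2.39 ± 0.25, adjusted p = 0.000506). BCR-ABL1 was 2.80-fold higher than C-MYC (1.49 ± 0.25, adjusted p = 0.00628). The call of BCR-ABL1 against EV was lost in 7 of 14 alternatives, adjusted p from 0.00323 to 0.256, among them those without EV replicate 1 and without any 1 library of either oncogene. The call of C-MYC against EV held in all 14, with a highest adjusted p of 0.00867, and that between the oncogenes was lost only without C-MYC replicate 2 (adjusted p = 0.0579, the highest of 14, the lowest being 6.12e-07).

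Partners that act on S1PR1 and on the other homing receptors followed different patterns. Cd69 encodes a surface protein that binds S1PR1 and takes it from the membrane. It had 52.5 and 112 CPM in EV, 85.1 and 76.2 with BCR-ABL1 and 14.2 and 17.8 with C-MYC. C-MYC was lower than both others, by 5.12-fold against EV (adjusted p = 0.00133) and by 5.03-fold against BCR-ABL1 (adjusted p = 0.00356), and BCR-ABL1 and EV overlapped (log2 fold change -0.03 ± 0.31, adjusted p = 0.968). Klf2 encodes a transcription factor that drives S1pr1 in lymphocytes. It had 71.6 and 53.3 CPM in EV, 35.9 and 21.8 with BCR-ABL1 and 31.6 and 15.6 with C-MYC. The EV libraries were the highest, and Klf2 passed in C-MYC (2.64-fold lower, adjusted p = 0.0150) but not in BCR-ABL1 (log2 fold change -1.11 ± 0.35, adjusted p = 0.0688), and the oncogenes differed by 0.29 ± 0.35 (adjusted p = 0.593). Foxo1, a factor upstream of Klf2, Ccr7 and Il7r in lymphocytes, had 444 and 286 CPM in EV, 430 and 321 with BCR-ABL1 and 206 and 170 with C-MYC. C-MYC was 1.94-fold lower than EV (adjusted p = 0.0115) and 2.00-fold lower than BCR-ABL1 (adjusted p = 0.0181).

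**Figure D3:**
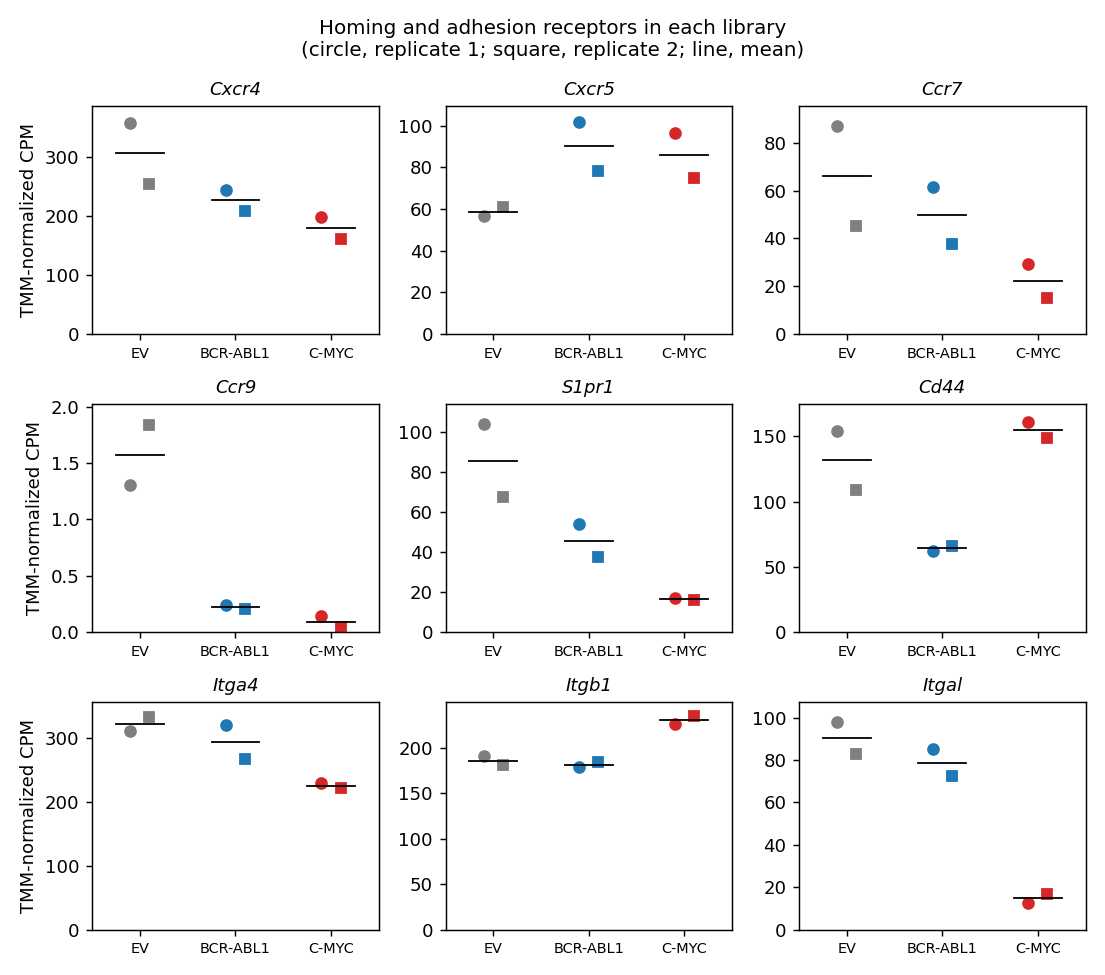
TMM-normalized CPM of each receptor (linear axes from 0) in both libraries of EV, BCR-ABL1 and C-MYC, with the condition mean as a line. S1pr1 and Itgal were lowest in C-MYC, Cd44 was lowest in BCR-ABL1, and Cxcr5 was lowest in EV.

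Cd44, the hyaluronan receptor, lies on GRCm38 chromosome 2 from 102811141 to 102901665 on the minus strand. It had 154 and 109 CPM in EV, 61.9 and 66.3 with BCR-ABL1 and 161 and 149 with C-MYC. Both BCR-ABL1 libraries lay under all 4 others, while EV and C-MYC overlapped. BCR-ABL1 was 2.05-fold lower than EV (log2 fold change -1.04 ± 0.17, adjusted p = 0.00601) and 2.42-fold lower than C-MYC (-1.27 ± 0.17, adjusted p = 0.00288). C-MYC differed from EV by 0.24 ± 0.16 (adjusted p = 0.281). The difference between the oncogenes passed in all 14 alternatives, with adjusted p of at most 0.0324, and that from EV in 13 of 14 (adjusted p from 2.85e-06 to 0.0565), all but the one without BCR-ABL1 replicate 1. C-MYC against EV passed in 1 of 14, without EV replicate 1, with adjusted p from 0.0104 to 0.955. Myeloid cells also express Cd44. Their marker sum was highest in EV and lowest in BCR-ABL1, from 156.5 to 177.3 CPM there against 232.9 to 390.6 in C-MYC. All measured myeloid markers but Cd68 lay lower in C-MYC than in EV, whereas Cd44 did not. Cd68 overlapped between EV and C-MYC and lay lower in BCR-ABL1. The part of these cells was not tested.

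The chains of VLA-4 went apart in C-MYC. Itga4 lies on GRCm38 chromosome 2 from 79255426 to 79333123 and Itgb1 on chromosome 8 from 128685654 to 128733200, both on the plus strand. Itga4, the alpha chain, had 311 and 334 CPM in EV, 322 and 268 with BCR-ABL1 and 230 and 222 with C-MYC. Itgb1, the beta chain shared with many other integrins, had 190.5 and 181 CPM in EV, 178.5 and 184 with BCR-ABL1 and 226 and 235 with C-MYC. EV and BCR-ABL1 overlapped for both chains, and C-MYC lay below them for Itga4 and above them for Itgb1. Itga4 was 1.43-fold lower in C-MYC than in EV (log2 fold change -0.51 ± 0.12, adjusted p = 0.00954) and Itgb1 1.24-fold higher (0.31 ± 0.10, adjusted p = 0.0318). Between BCR-ABL1 and EV the differences were -0.13 ± 0.12 (adjusted p = 0.496) and -0.03 ± 0.10 (adjusted p = 0.860). Between BCR-ABL1 and C-MYC they were 0.38 ± 0.12 (adjusted p = 0.0488) and -0.35 ± 0.10 (adjusted p = 0.0365).

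The 4 VLA-4 calls differed in how far they held. Itga4 in C-MYC against EV was lost only without C-MYC replicate 2 (adjusted p = 0.0601, the lowest of 14 alternatives being 0.00331), and Itgb1 in 7 of 14, with adjusted p from 0.00738 to 0.128. Of the calls between the oncogenes each was lost in 6 of 14, among them those without any 1 library of either oncogene, with adjusted p from 0.0255 to 0.398 for Itga4 and from 0.00901 to 0.285 for Itgb1. The exons of Itga4 overlap the body of Cerkl on the other strand, and such reads cannot be told apart here.

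For C-MYC against EV, the fold change of the LFA-1 alpha chain was the largest of the 9 receptors after that of Ccr9. Itgal, its alpha chain, lies on GRCm38 chromosome 7 from 127296260 to 127335138 on the plus strand. It had 97.9 and 83.0 CPM in EV, 85.0 and 72.3 with BCR-ABL1 and 12.7 and 17.1 with C-MYC. Both C-MYC libraries lay far under the 4 others, and EV and BCR-ABL1 overlapped. Itgal was 6.06-fold lower in C-MYC than in EV (log2 fold change -2.60 ± 0.18, adjusted p = 0.000177) and 5.27-fold lower than in BCR-ABL1 (adjusted p = 0.000475). BCR-ABL1 differed from EV by -0.20 ± 0.17 (adjusted p = 0.471). The calls involving C-MYC held in all 14 alternatives, with a highest adjusted p of 0.00423 and 0.00905. Itgb2, the beta chain, had 167 and 157 CPM in EV, 82.1 and 94.6 with BCR-ABL1 and 50.1 and 59.4 with C-MYC. The conditions did not overlap, and Itgb2 passed in each comparison: 1.83-fold lower in BCR-ABL1 than in EV (adjusted p = 0.00466), 2.95-fold lower in C-MYC (adjusted p = 0.000306) and 1.61-fold higher in BCR-ABL1 than in C-MYC (adjusted p = 0.00977). Myeloid cells also express Itgb2, and Itgam, its myeloid partner, had 113 and 89.6 CPM in EV and at most 16.5 in the other libraries. T cells and NK cells express both LFA-1 chains, and their markers without Lck summed to 134 and 98.2 CPM in EV and to between 3.999 and 9.43 in the oncogene libraries. The part of these cells in the Itgal and Itgb2 values was not tested.

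The balance of the chains was described from FPKM, the deposited level per length. The log2 ratio of Itga4 to Itgb1 was -0.44 and -0.29 in EV, -0.32 and -0.61 with BCR-ABL1 and -1.14 and -1.26 with C-MYC. EV and BCR-ABL1 overlapped in this ratio, and both C-MYC libraries lay lower. The log2 ratio of Itgal to Itgb2 was -1.61 and -1.83 in EV, -0.78 and -1.30 with BCR-ABL1 and -2.83 and -2.65 with C-MYC. All 3 conditions were apart in the second ratio, which was highest in BCR-ABL1, where Itgb2 was lower than in EV and Itgal did not pass. With 2 libraries a condition these ratios were not tested. Myeloid cells also express Itgb2, as given above, and their part in the second ratio was not tested.

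Vcam1, Icam1 and Itgb7, further partners in adhesion, all had their highest libraries in EV. Vcam1, the VLA-4 ligand and a stromal marker, had 131 and 158 counts in EV, 8 and 7 with BCR-ABL1 and 4 and 15 with C-MYC. The EV values stood far above the rest, 18.8-fold over BCR-ABL1 (adjusted p = 0.00176) and 14.6-fold over C-MYC (adjusted p = 0.000840). Icam1, the LFA-1 ligand, had 79.6 and 58.8 CPM in EV, 52.0 and 40.1 with BCR-ABL1 and 46.0 and 35.2 with C-MYC. It passed in C-MYC against EV (1.70-fold lower, adjusted p = 0.0204) and not in BCR-ABL1 against EV (log2 fold change -0.59 ± 0.21, adjusted p = 0.0983), and the oncogenes differed by 0.18 ± 0.21 (adjusted p = 0.567). Itgb7, the beta chain that pairs with the Itga4 product for homing to gut, had 53.6 and 49.4 CPM in EV, 3.22 and 4.03 with BCR-ABL1 and 6.57 and 7.14 with C-MYC. It was 14.1-fold lower in BCR-ABL1 (adjusted p = 0.000354) and 7.51-fold lower in C-MYC (adjusted p = 0.000156) than in EV, and 1.88-fold lower in BCR-ABL1 than in C-MYC (adjusted p = 0.0109). Mast cells express Itgb7. The marker sum of mast cells and basophils was likewise highest in EV, and their part was not tested.

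**Figure D4:**
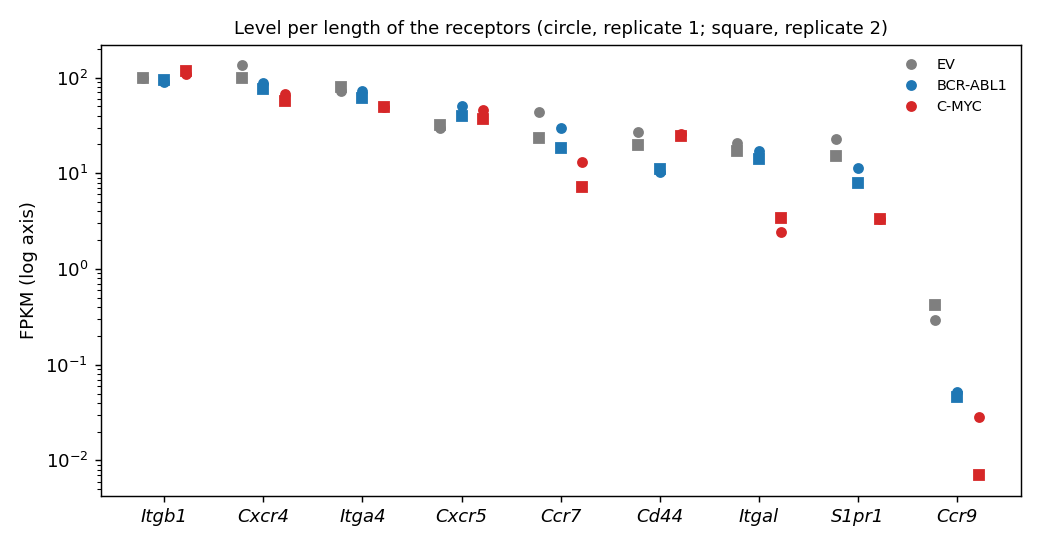
FPKM of the receptors (log axis) in both libraries of each condition, ordered by their mean over conditions. Itgb1, Cxcr4 and Itga4 were the highest and Ccr9 the lowest in all conditions, and Itgal and S1pr1 in C-MYC lay near 3 FPKM.

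The receptors differed widely in level per length. In EV, Cxcr4 had a mean of 116 FPKM, Itgb1 98.8 and Itga4 76.7. Next came Ccr7 at 33.5, Cxcr5 at 30.9, Cd44 at 23.2, S1pr1 at 19.1 and Itgal at 18.8 FPKM, with Ccr9 at 0.355. Cxcr4 and Itgb1 overlapped between libraries, as did Ccr7 with Cxcr5, Cd44 with S1pr1, and S1pr1 with Itgal. In BCR-ABL1 the order was Itgb1 at 91.7, Cxcr4 at 81.7, Itga4 at 66.7, Cxcr5 at 45.2, Ccr7 at 23.9, Itgal at 15.6, Cd44 at 10.7, S1pr1 at 9.69 and Ccr9 at 0.0486 FPKM, and of neighbours only Cd44 and S1pr1 overlapped. In C-MYC it was Itgb1 at 113, Cxcr4 at 62.5, Itga4 at 49.4, Cxcr5 at 41.3, Cd44 at 25.1, Ccr7 at 10.2, S1pr1 at 3.33, Itgal at 2.90 and Ccr9 at 0.0178 FPKM, and only S1pr1 and Itgal overlapped. Cxcr5 stood above Ccr7, and Cd44 above Ccr7, S1pr1 and Itgal, in C-MYC.

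The order depended on how length was taken into account. By counts per kilobase of annotated exon, Cxcr4 led in all 3 conditions, at 169, 125 and 99.5 CPM per kilobase, ahead of Itgb1 at 45.5, 44.5 and 56.5. Relative to the median gene, FPKM gave Cxcr4 0.423 and S1pr1 0.424 of the level that counts per kilobase gave, and Itga4 2.05-fold more. Orders among receptors other than the last place of Ccr9 are therefore given as FPKM only, and fold changes of 1 gene between conditions do not rest on length.

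Of 10622 genes that averaged 50 counts or more, some had profiles over the 6 libraries close to those of a receptor. The measure was the root mean square difference of centered log2 CPM, which is a description over 6 libraries, the same for every gene. Ifi30 (0.03) and Unc119b (0.03) were nearest to Cxcr4, where Cxcr4 itself varied with an SD of 0.36. Pld4 (0.17) and Ifi27 (0.22) were nearest to Itgal, with an SD of 1.19. Pld4 had 76.7 and 67.9 CPM in EV, 69.5 and 63.4 with BCR-ABL1 and 10.3 and 10.4 with C-MYC, the same step as Itgal. Fgd6 (0.11) and Rhof (0.11) were nearest to S1pr1, Klf3 (0.15) and Cnn3 (0.19) to Ccr7, and Rab11fip1 (0.09) and Tirap (0.12) to Cd44. Klf3 encodes a transcription factor of the Kruppel-like family and had 27.4 and 16.1 CPM in EV, 16.5 and 11.5 with BCR-ABL1 and 8.14 and 5.21 with C-MYC. Wdfy4 (0.03) and Plekhn1 (0.04) were nearest to Itga4, Zfp800 (0.03) and Gtf2f1 (0.04) to Itgb1, and Lsm3 (0.10) and Fam175a (0.10) to Cxcr5. Loxl2 (0.24) and Polm (0.24) were nearest to Ccr9, of which the low counts make likeness imprecise. Among the receptors themselves the closest pairs were Cxcr4 with Itga4 (0.22) and Cxcr5 with Itgb1 (0.32), and the farthest was Cxcr5 with Ccr9 (1.64).

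Beyond the 9 receptors, 132 genes of the pathway were listed, of which 130 were in the tables and 116 passed the filter. Against EV, 2 were higher and 37 lower in BCR-ABL1, 33.6% in all, beside 17% of all genes tested (5.08% higher and 12% lower), and 3 were higher and 71 lower in C-MYC, 63.8% in all, beside 43.1% (18.6% higher and 24.5% lower). Between BCR-ABL1 and C-MYC, 31 were higher in BCR-ABL1 and 8 lower, 33.6% in all, beside 23.4% (11.9% higher and 11.5% lower). The median log2 fold changes were -0.39, -0.78 and 0.29 in that order, beside 0.00, -0.08 and 0.00 for all genes tested. The counts in comparisons of BCR-ABL1 rested on single libraries: against EV they fell from 39 to 21 without BCR-ABL1 replicate 1 and to 24 without replicate 2, and against C-MYC from 39 to 8 and 16 without these, to 21 without C-MYC replicate 1 and to 10 without C-MYC replicate 2.

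**Figure D5:**
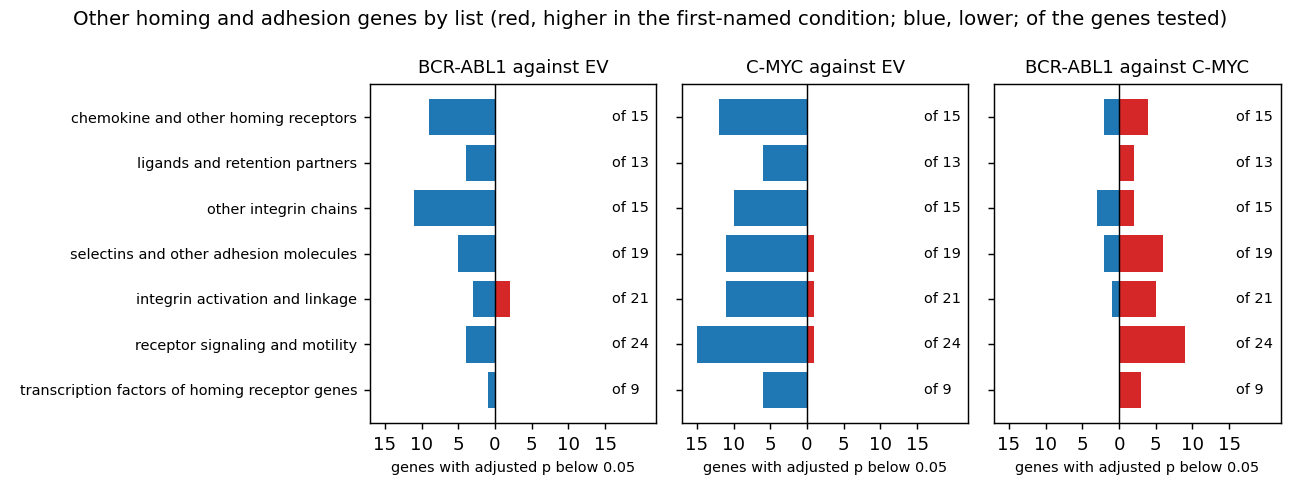
Numbers of genes in each list that passed at an adjusted p below 0.05, higher (red, right) or lower (blue, left) in the condition named first, with the number tested beside each bar. Most genes called against EV were lower: 37 with BCR-ABL1 and 71 with C-MYC, of 116 tested, where 12% and 24.5% of all genes were lower.

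Chemokine and other homing receptors outside the 9 were lower against EV at 9 of 15 tested with BCR-ABL1 (60%, beside 12% of all genes) and 12 of 15 with C-MYC (80%, beside 24.5%). Ccr2, the receptor that brings monocytes out of marrow, had 16.6 and 35.9 CPM in EV and at most 1.75 in the other libraries. It was 27.3-fold lower in BCR-ABL1 (adjusted p = 0.00176) and 22.6-fold lower in C-MYC (adjusted p = 0.000784). Ccr1, another myeloid chemokine receptor, was 18.1-fold lower in BCR-ABL1 (adjusted p = 0.000354), and Cxcr3, found on T cells and NK cells, was 20.7-fold lower in C-MYC (adjusted p = 0.000350). These are receptors of the cells whose marker sums were highest in EV, and the part of those cells was not tested. Between the oncogenes, 4 were higher in BCR-ABL1 and 2 lower, 40% in all beside 23.4% of all genes. Cnr2, the cannabinoid receptor of B cells, was 3.41-fold higher (adjusted p = 0.00562), and Ptger4, a prostaglandin receptor, 1.84-fold higher (adjusted p = 0.00650). S1pr2, which opposes migration to sphingosine 1-phosphate, was 2.46-fold lower in BCR-ABL1 than in C-MYC (adjusted p = 0.0384).

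Other integrin chains were lower at 11 of 15 tested with BCR-ABL1 (73.3%, beside 12% of all genes) and 10 of 15 with C-MYC (66.7%, beside 24.5%), at medians of -2.84 and -2.13 on the log2 scale. Itgax and Itgam, the alpha chains of dendritic and myeloid cells, were among them: Itgax was 18.1-fold lower in BCR-ABL1 (adjusted p = 0.000827) and 16.5-fold lower in C-MYC (adjusted p = 0.000370), and Itgam 7.99-fold lower in C-MYC (adjusted p = 0.000379). Between the oncogenes 2 chains were higher in BCR-ABL1, Itgb3 by 1.91-fold (adjusted p = 0.0348) and Itgb2 as above, and 3 were lower, among them Itgb5 by 4.57-fold (adjusted p = 0.0215) and Itga9 by 2.54-fold (adjusted p = 0.0399). These 5 of 15 were 33.3%, beside 23.4% of all genes. The myeloid marker sum, which includes Itgam, was also lower in BCR-ABL1 than in C-MYC, at 156.5 to 177.3 against 232.9 to 390.6 CPM. The part of those cells in these chains was not tested. Ligands and retention partners were lower at 4 of 13 with BCR-ABL1 (30.8%, beside 12% of all genes) and 6 of 13 with C-MYC (46.2%, beside 24.5%). Cd69 and Fn1 were higher in BCR-ABL1 than in C-MYC, and these 2 of 13 were near the share of all genes, 11.9%. Fn1, fibronectin of the matrix, had 67.1 and 115 CPM in EV, 8.25 and 8.06 with BCR-ABL1 and 2.25 and 2.83 with C-MYC. It was 11.2-fold lower in BCR-ABL1 (adjusted p = 0.000497) and 35.8-fold lower in C-MYC (adjusted p = 0.000156) than in EV. Stromal cells make fibronectin, and their markers were scarce outside EV.

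Selectins and other adhesion molecules were lower at 5 of 19 in BCR-ABL1, 26.3% beside 12% of all genes. In C-MYC, 12 of 19 passed, 63.2% beside 43.1% of all genes: 11 were lower and 1 was higher, St3gal4, a sialyltransferase for selectin ligands, by 1.67-fold (adjusted p = 0.0179). Pecam1 was 4.56-fold lower in C-MYC (adjusted p = 0.000329). Between the oncogenes, 6 were higher in BCR-ABL1 and 2 lower, 42.1% beside 23.4% of all genes. The tetraspanin Cd82 was 4.16-fold higher (adjusted p = 0.00424), Gcnt1, an enzyme of selectin ligands, 2.25-fold higher (adjusted p = 0.0189), and Cd9, another tetraspanin, was 3.06-fold lower (adjusted p = 0.00156). Cd9 had 64.4 and 45.9 CPM in EV, 16.6 and 16.5 with BCR-ABL1 and 48.4 and 53.0 with C-MYC. Like Cd44, it was low in BCR-ABL1 while EV and C-MYC overlapped.

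Genes that activate integrins or link them to the cytoskeleton were higher at 2 and lower at 3 of 21 in BCR-ABL1 against EV, 23.8% in all, which is near the 17% of all genes. Ptk2, focal adhesion kinase, had 2.48 and 3.72 CPM in EV, 12.1 and 8.93 with BCR-ABL1 and 4.14 and 5.07 with C-MYC. Both BCR-ABL1 libraries were the highest, 3.38-fold over EV (adjusted p = 0.00675) and 2.28-fold over C-MYC (adjusted p = 0.0215). Parvg, a parvin of blood cells that joins integrins to actin, was 1.51-fold higher in BCR-ABL1 than in EV (adjusted p = 0.00950). In C-MYC, 12 of 21 passed, 57.1% beside 43.1% of all genes. Of these 11 were lower, such as Rasgrp3, an activator of RAS and RAP1, by 4.01-fold (adjusted p = 0.00836), and 1 was higher, Tln2, a talin, by 3.36-fold (adjusted p = 0.00413). Zyx, zyxin of focal adhesions, was lower against EV in both, by 3.86-fold in BCR-ABL1 (adjusted p = 0.00162) and by 4.98-fold in C-MYC (adjusted p = 0.000423).

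Receptor signaling and motility genes were lower at 4 of 24 with BCR-ABL1, 16.7% and so near the 12% of all genes. With C-MYC 15 were lower and 1 higher, 66.7% in all beside 43.1% of all genes, and 9 of 24 were higher in BCR-ABL1 than in C-MYC, 37.5% beside 11.9%. Rgs18, which shortens G protein signals, had 7.57 and 6.02 CPM in EV, 9.48 and 7.81 with BCR-ABL1 and 2.07 and 2.33 with C-MYC. It was 3.92-fold higher in BCR-ABL1 than in C-MYC (adjusted p = 0.00260). Rgs1 and Rgs10, of the same family, were lower against EV in both, Rgs1 by 9.03-fold in BCR-ABL1 (adjusted p = 0.00160) and 4.35-fold in C-MYC (adjusted p = 0.00216), and Rgs10 by 2.28-fold (adjusted p = 0.0132) and 4.58-fold (adjusted p = 0.000605). Elmo1, a partner of the RAC activator DOCK2, was the 1 that was higher in C-MYC than in EV, by 1.54-fold (adjusted p = 0.0124). Of 9 listed transcription factors of homing receptor genes, 1 was lower in BCR-ABL1, Nfkb2 by 1.98-fold (adjusted p = 0.0145), which is 11.1% beside 12% of all genes, and 6 in C-MYC (66.7% beside 24.5%), among them Nfkb2, Relb, Klf2 and Foxo1. Relb, which drives chemokine genes of lymphoid tissue, was 3.23-fold lower in C-MYC (adjusted p = 0.00816), and Nfkb2, its usual partner, 2.83-fold lower (adjusted p = 0.00119).

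Promoter windows of RefSeq, from 250 bases before to 50 after the start of a gene on GRCm38.p6, were found for 5 of the 9 receptors: Cxcr4, Itga4, Itgb1, Cd44 and Ccr9. They were searched on both strands. The E-box CACGTG, bound by MYC with MAX, was in 0 of the 5 and in 7.15% of 32851 windows. The STAT motif TTCNNNGAA was in 0 of the 5 and in 8.30% of windows, and the FOXO motif TGTTTAC in 0 of the 5 and in 3.65%. The GC box GGGCGG was in 4 of the 5, all but Ccr9, and in 35.7% of windows. A match is only a description of letters, and its absence here says nothing of sites outside these windows. The 250 bases before the start are shown for Cxcr4 and Itga4, which were lower in C-MYC than in EV, and for Itgb1, which was higher, each 5′ to 3′ on the strand of its gene. Capitals mark the GC box or its reverse complement.
Cxcr4 (chr1:128592300-128592549, minus strand): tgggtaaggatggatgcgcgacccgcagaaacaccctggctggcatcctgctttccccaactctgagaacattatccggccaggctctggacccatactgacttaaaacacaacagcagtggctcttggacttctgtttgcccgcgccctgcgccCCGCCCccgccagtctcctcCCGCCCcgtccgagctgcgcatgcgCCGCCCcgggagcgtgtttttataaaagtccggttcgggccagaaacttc
Itga4 (chr2:79255176-79255425, plus strand): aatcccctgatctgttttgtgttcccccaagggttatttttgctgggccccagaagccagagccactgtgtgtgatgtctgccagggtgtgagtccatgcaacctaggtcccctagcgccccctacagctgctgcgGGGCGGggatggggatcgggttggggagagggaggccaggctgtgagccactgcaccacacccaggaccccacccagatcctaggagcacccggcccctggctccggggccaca
Itgb1 (chr8:128685404-128685653, plus strand): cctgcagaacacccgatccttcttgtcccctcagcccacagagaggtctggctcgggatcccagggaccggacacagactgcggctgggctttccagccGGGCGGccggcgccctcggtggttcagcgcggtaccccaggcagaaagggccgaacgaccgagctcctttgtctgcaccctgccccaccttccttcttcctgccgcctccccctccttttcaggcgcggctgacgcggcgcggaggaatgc
The Cxcr4 stretch held 3 GC boxes, which began at -95, -75 and -50 relative to the start, the Itga4 stretch 1 at -114 and the Itgb1 stretch 1 at -151.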

How the data were processed

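Poly(A) RNA-seq of 6 libraries was analysed, and the 15 ChIP-seq samples of the series were not used here. The authors used STAR 2.5.0 to align reads to the mouse build GRCm38/mm10 and deposited raw counts for each gene symbol. The deposited FPKM values were computed by the authors in StringTie 1.3.0. The program that counted reads, its strand setting and how FPKM was combined per symbol are not given in the sources used here. Columns of other samples numbered 0.

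The labels gave the condition and replicate number of each library. Counts were tested with edgeR 4.0.16 in R 4.3.3: filterByExpr, TMM, 1 quasi-likelihood model of all 6 libraries with no covariate, and Benjamini-Hochberg adjustment over 12786 genes, called at 0.05. The filter kept some genes only through EV, among them Ccr9, Cxcl12, Vcam1 and Cxcr3. Such genes could hardly come out other than lower against EV, and the counts of lower genes include them. The SE is the log2 fold change divided by the square root of F. The test was checked on simulated counts. The common biological coefficient of variation was 0.151, and replicates of each condition differed by more than counting noise (chi-square per degree of freedom from 11.5 to 49.4). Intervals cover counting error only, and a count of 0 was taken to allow 3 counts.

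Gene positions are from GENCODE on GRCm38, and 95.5% of symbols had an exon length. Named genes were all 9 receptors, partners chosen by role, the 2 nearest genes by likeness (prior count 2), and, of each list, up to 2 genes a direction and comparison with the largest change, an adjusted p below 0.05, no overlap and a mean of at least 50 counts. One gene that this rule names is not reported here. The members and lists were chosen with earlier results of these data known. Alternatives were DESeq2 1.42.0 (size factors and test), limma 3.58.1 on log2(FPKM + 1) and log2(FPKM + 0.1), no filter, 1 CPM in 2 libraries, only the 4 libraries compared, a replicate term, each library left out, and counts per kilobase in place of FPKM. Python 3.11.15 was used for levels and figures.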

Additional observations from a re-analysis of the deposited data

How the results depend on the processing

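Over 377 refits of single receptors under other settings, 317 kept their direction and side of the threshold, 46 lost and 10 gained a call and 4 changed sign. The changes of sign were all of differences that had not passed. With each library left out in turn, the log2 fold change of BCR-ABL1 against EV ranged from -0.81 to 0.13 for Ccr7 and from -0.068 to 0.011 for Itgb1, above 0 only without EV replicate 1, and that of Cxcr5 between BCR-ABL1 and C-MYC from -0.13 to 0.27, below 0 without BCR-ABL1 replicate 1 or C-MYC replicate 2 (-0.10). The cause was not tested. The number of receptors called fell from 4 to 2 for BCR-ABL1 against EV with limma on log2(FPKM + 1) and with only the 4 libraries compared, and from 5 to 3 for BCR-ABL1 against C-MYC with limma on log2(FPKM + 1). With each library left out in turn, an arm of 1 library being assumed to vary like the others, it ranged from 0 to 5 for BCR-ABL1 against EV, from 4 to 8 for C-MYC against EV and from 2 to 6 for BCR-ABL1 against C-MYC, and the number of listed genes from 21 to 50, from 54 to 74 and from 8 to 49. In place of FPKM, counts per kilobase of exon moved the log2 ratio of Cxcr4 to Itgb1 from 0.22 to 1.88 in EV, from -0.17 to 1.49 in BCR-ABL1 and from -0.87 to 0.81 in C-MYC, while the differences in chain ratios moved by less than the spread between libraries. Over all genes, 2180, 5515 and 2991 were called in the 3 comparisons. Without a BCR-ABL1 library the first fell to 714 or 665 and the third to 618 or 1130, without a C-MYC library the second fell to 3329 or 3563 and the third to 1291 or 1038, and the third rose to 4538 with only the 4 libraries compared and to 4500 or 4519 without an EV library. The conditions share replicate numbers, but the labels tie them to no mouse, batch or day. Same-numbered libraries deviated together with correlations of 0.273, 0.236 and 0.204 across genes. With a replicate block, 6, 8 and 7 receptors, 52, 83 and 53 listed genes and 3224, 6631 and 4278 genes were called. The receptor calls it added were those of Cxcr4 and Ccr7 in both comparisons of BCR-ABL1, and it removed none. With 2 libraries a condition, spread limits these results more than depth, except for Ccr9.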
